A study of Mus musculus with 8 samples.

Results

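Acute-phase proteins are plasma proteins whose output by the liver shifts after injury, and 10 genes for such proteins were followed here in chromatin accessibility data from regenerating mouse hepatocytes. They were Saa1, Saa2, Saa3 and Saa4, which sit together on chromosome 7 and were handled as 1 cluster, and Hp, Hpx, Orm1, Lcn2, Crp and Apcs. The 10 genes were taken by name from 55413 annotated genes. For each gene, or for the whole Saa cluster, every accessible region overlapping the gene body or its 10000 bp flanks was collected, which gave 117 of the 315767 regions found in the series. Of the 117 regions, 16 overlapped the 1000 bp on either side of a member's transcription start site and are called promoter regions, 11 overlapped the start of some other gene, and 90 were distal.

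The acute-phase response is driven mainly by interleukin-6 and interleukin-1, which act on hepatocytes through STAT3, C/EBP and NF-kB family transcription factors. Hepatocytes answer by raising the transcription of positive acute-phase genes and lowering that of negative ones such as albumin. Removal of part of the liver is known to set off the same cytokine signals within hours, before hepatocytes divide. In ATAC-Seq, a transposase cuts and tags DNA that is not covered by nucleosomes. A peak therefore marks accessible chromatin and says nothing direct about the RNA made from the gene.

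Hepatocytes were isolated by collagenase perfusion from C57BL/6 mice aged 10 to 12 weeks and fed a normal diet (male C57BL/6J mice per the study's methods). The 0 h group was healthy, undamaged liver, and the other groups were livers 48, 72 and 96 h after partial hepatectomy (PHx). Each of the 4 groups had 2 libraries, 8 in all. The 3 later groups were each set against the same pair of 0 h libraries, and the sources used here do not say whether the 0 h mice had sham surgery. The study's text describes biological replicates made from separate hepatocyte preparations, with more of them at 0 and 48 h than were used here. Any further libraries were not analysed here, and the labels do not tie a library to a mouse.

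The deposited files list peaks called in each library separately and hold no read counts, so sequencing depth is unknown. The lists held 105206 (0 h replicate 2) to 154577 (72 h replicate 2) distinct intervals. The deposited list of 72 h replicate 2 lacks the sequencing-run tag that the other 7 carry in their names, and whether it was sequenced apart from them is not known. To set lists of unequal length side by side, each interval was ranked within its list by the peak caller's p-value, and the rank was expressed as a percentile, with 100 for the strongest interval. The other measure was fold enrichment, the signal at the summit over local background. Both measures come from the peak caller. As a check on the labelled cell type, 5 to 7 of 7 hepatocyte marker promoters were listed in each library, against 0 of 3 for lymphocytes, 0 or 1 of 5 for macrophages and 0 to 2 of 5 for neutrophils. Promoters of other liver cells were also listed, with 3 of 5 endothelial, 2 to 4 of 4 stellate and 2 or 3 of 4 cholangiocyte markers in a library. The part of such cells in the results below was not tested.

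The sequence just upstream of the start site was read for the 8 members that the RefSeq promoter table (GRCm38.p6) holds. Hp and Orm1 have no entry. In the lines that follow, the Saa1 and Saa2 stretches are shown because they are near copies, Saa4 as the only Saa promoter listed in every library, Hpx for its lower values after PHx, and Crp and Apcs as the pentraxin pair. Capitals mark a match to a C/EBP motif (TTNNGNAAT, or TTGCNNAA and its other strand TTNNGCAA) or, in Apcs, to the STAT motif TTCNNNGAA. Each is written 5′ to 3′ toward the gene and stops at the start site that the promoter table uses, or sooner where a GENCODE exon begins. The RefSeq span of Saa1 reaches further upstream than that start site, to position 46743181, so most of its printed stretch, the capitals included, lies within that span.
Saa1 (chr7:46742981-46743230, minus strand): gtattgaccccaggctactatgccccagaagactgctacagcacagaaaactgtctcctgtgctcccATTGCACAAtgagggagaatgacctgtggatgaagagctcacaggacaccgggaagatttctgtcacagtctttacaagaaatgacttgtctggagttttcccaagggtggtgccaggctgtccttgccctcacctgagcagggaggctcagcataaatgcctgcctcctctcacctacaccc
Saa2 (chr7:46751583-46751789, plus strand): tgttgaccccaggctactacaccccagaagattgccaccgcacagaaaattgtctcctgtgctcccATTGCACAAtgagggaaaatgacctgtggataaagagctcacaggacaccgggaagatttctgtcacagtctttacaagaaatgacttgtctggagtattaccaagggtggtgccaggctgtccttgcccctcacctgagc
Saa4 (chr7:46732604-46732853, minus strand): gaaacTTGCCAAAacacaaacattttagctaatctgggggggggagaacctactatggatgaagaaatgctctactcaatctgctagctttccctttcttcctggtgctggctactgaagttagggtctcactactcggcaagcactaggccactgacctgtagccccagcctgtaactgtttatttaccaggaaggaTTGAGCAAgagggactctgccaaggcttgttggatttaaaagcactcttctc
Hpx (chr7:105600138-105600366, minus strand): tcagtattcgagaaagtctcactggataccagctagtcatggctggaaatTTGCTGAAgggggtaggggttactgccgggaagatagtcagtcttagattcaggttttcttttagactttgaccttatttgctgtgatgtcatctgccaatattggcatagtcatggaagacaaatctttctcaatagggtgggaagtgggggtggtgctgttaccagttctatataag
Crp (chr1:172697806-172698054, plus strand): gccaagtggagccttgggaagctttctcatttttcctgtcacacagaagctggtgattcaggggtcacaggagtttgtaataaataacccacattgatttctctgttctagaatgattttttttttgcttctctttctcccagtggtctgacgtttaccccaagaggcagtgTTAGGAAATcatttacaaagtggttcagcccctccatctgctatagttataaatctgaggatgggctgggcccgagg
Apcs (chr1:172895055-172895304, minus strand): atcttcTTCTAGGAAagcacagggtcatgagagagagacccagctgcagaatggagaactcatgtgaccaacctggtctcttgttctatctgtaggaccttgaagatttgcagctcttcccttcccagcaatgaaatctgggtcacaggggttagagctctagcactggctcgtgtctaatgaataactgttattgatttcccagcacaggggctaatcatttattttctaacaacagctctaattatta

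Both strands of the 250 bases before each start site of the promoter table were searched, for Saa1 mostly within its longer RefSeq span. TTGCNNAA or its other strand was found in 6 of the 8 members (Saa1, Saa2, Saa3, Saa4, Hpx and Lcn2), against 9.56% of the 32851 promoters in the table. TTNNGNAAT was found in 3 of 8 (Saa1, Saa2 and Crp), against 10.2% of all promoters. In Saa1 and Saa2 both C/EBP patterns overlap and share the same bases. TTCNNNGAA was found in 1 of 8, Apcs, against 7.02%, and CTGGGA, the core of the type 2 interleukin-6 element, in 2 of 8, Crp and Apcs, against 27.0%. No member window held the HNF1 core GTTAAT (6.43% of all promoters), the FOXA motif TGTTTAC (3.17%), the NF-kB motif (3.90%) or the HNF4 motif (0.0731%). These are letter matches only.

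Saa1 and Saa2 encode the inducible serum amyloid A proteins that travel on high-density lipoprotein, and their upstream stretches aligned with 238 of 250 bases identical, or 95.2%. The other pairs within the cluster shared 55.6% to 61.6%. Of the 50-base words within 1000 bp of the start site, 73.3% at Saa1 and 74.5% at Saa2 occurred once in the genome, and within the gene bodies 67.1% and 68.0%. At the other members this share was 95.1% to 100% around the start, and the median over 30 further acute-phase promoters was 100%. Between the upstream stretches of Saa1 and Saa2, 23 of 201 50-base words were shared, or 11.4%. The lowest share of unique words among the 30 further promoters was 75.5%, at Hamp, whose promoter was listed in all 8 libraries. The part of the copied sequence in the missing Saa1 and Saa2 intervals was not tested.

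Of 16412 protein-coding genes with a promoter region in any library, 80.6% had it listed in all 8. A promoter interval was listed in all 8 libraries for 7 of the 10 genes, namely Hp, Hpx, Orm1, Lcn2, Crp, Apcs and Saa4. Saa3 had one in 7 libraries, Saa2 in 3 (spread over 2 regions, of which the plot draws the stronger) and Saa1 in 2. Among the 50000 strongest intervals of each list, 4 genes kept one in all 8 libraries (Hpx, Lcn2, Crp and Apcs), while Orm1 had one in 7, Hp and Saa4 in 6, Saa3 in 3, and Saa1 and Saa2 in 0. The share of all promoters that kept one at this cut was not computed. The 8 percentiles of each gene are drawn in the plot of promoter intervals by library.

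**Figure D1:**
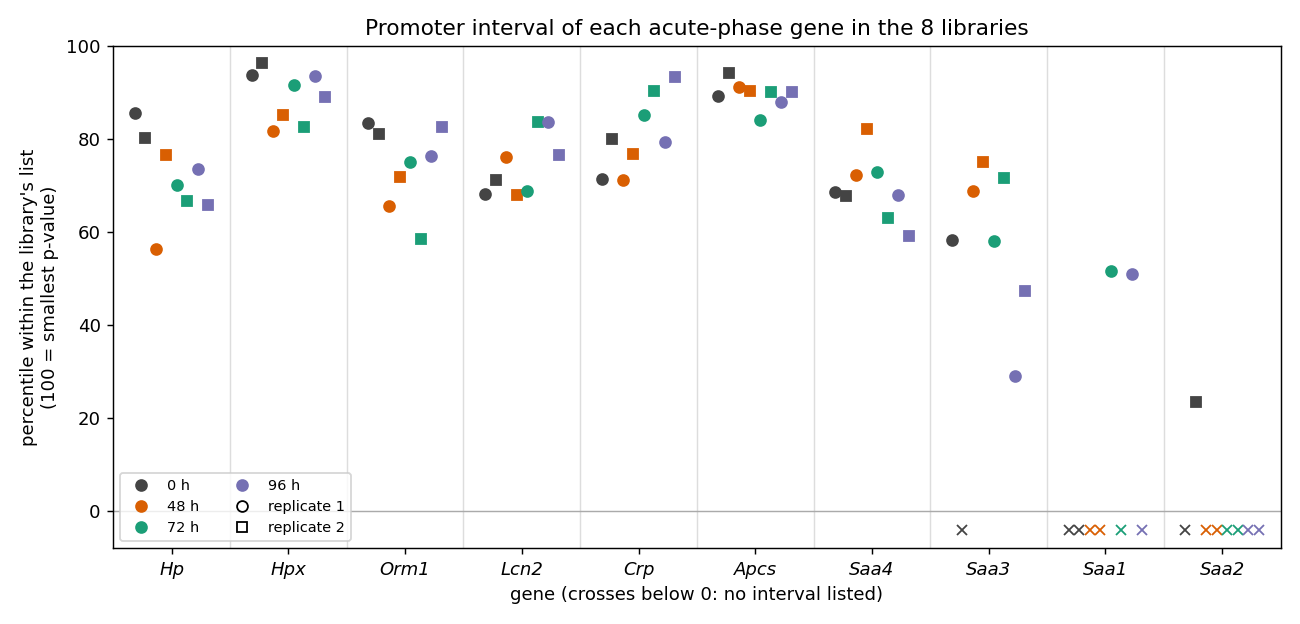
Percentile of the promoter interval of each of the 10 genes (y axis, 0 to 100, within the library's own list) in the 8 libraries, coloured by time after PHx, with circles for replicate 1, squares for replicate 2 and crosses below 0 where no interval was listed. The Hp and Hpx points after PHx all lie below both 0 h points, and Saa1 and Saa2 are mostly crosses.

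Hp and Hpx, whose products haptoglobin and hemopexin bind free haemoglobin and free haem in plasma, had the only member promoters that ranked lower in every library after PHx than in both 0 h libraries. The Hpx promoter region (chr7:105599908-105600408, over the first exon) stood at percentiles 93.8 and 96.3 in the 0 h pair, 81.8 and 85.1 in the 48 h pair, 91.5 and 82.6 in the 72 h pair, and 93.6 and 89.1 in the 96 h pair. Its groups did not overlap at any time, though 96 h replicate 1 came close to the lower 0 h value. The fold enrichment there was 5.28 and 8.81 at 0 h, 2.98 and 2.94 48 h after PHx, 4.45 and 2.73 after 72 h, and 4.39 and 4.37 after 96 h. The 48 h pair was tight and low, while the 0 h pair was widely spread, with replicate 2 well above replicate 1.

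The Hp promoter region (chr8:109578789-109579348, over the first exon) was at percentiles 85.6 and 80.3 in the 0 h pair, 56.3 and 76.5 in the 48 h pair, 70.2 and 66.7 in the 72 h pair, and 73.6 and 65.8 in the 96 h pair. The lowest value was that of 48 h replicate 1. Its fold enrichment was 5.39 and 5.73 at 0 h, 3.08 and 3.44 48 h after PHx, 3.85 and 2.63 after 72 h, and 4.07 and 3.52 after 96 h. Here the 0 h pair agreed closely, and all 6 later libraries lay under it. The median fold enrichment of the whole list was also lower in these, at 3.73 to 4.29 against 4.55 and 5.07 at 0 h, so raw values are not on 1 scale across libraries.

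For the test, limma was run on quantile-normalised log2 fold enrichment over the 57473 regions listed in all 8 libraries, with Benjamini-Hochberg adjustment over all of them. The Hpx promoter differed from 0 h by -0.95 at 48 h, -0.89 at 72 h and -0.51 at 96 h on the log2 scale (SE 0.30), with limma adjusted p of 0.360, 0.701 and 0.920. The Hp promoter differed by -0.52, -0.75 and -0.46 (SE 0.25), with limma adjusted p of 0.529, 0.701 and 0.905. Without 0 h replicate 2 the Hpx differences were -0.59, -0.52 and -0.14. The 96 h one was -0.90 when 0 h replicate 1 was left out, and the 72 h one was -0.58 when 72 h replicate 2 was. No library moved those of Hp by over 1.5 times. Neither promoter passed the threshold of 0.05. None of the 57473 regions did in any of these comparisons, where the smallest limma adjusted p was 0.156 at 48 h, 0.503 at 72 h and 0.678 at 96 h, although 5682, 3610 and 3266 regions had an unadjusted p under 0.05. Lower percentiles in all 6 libraries after PHx were found for 2 of the 10 member promoters, against 3.25% of 16412 protein-coding promoters. Higher percentiles in all 6 were found for 0 of the 10, against 6.14%.

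The 3′ ends of the same 2 genes ranked the other way. A long region spanning the 3′ end of Hpx (chr7:105590021-105593725) was at percentiles 87.5 and 76.7 in the 0 h pair, 95.4 and 96.2 in the 48 h pair, 94.1 and 97.2 in the 72 h pair, and 94.9 and 90.2 in the 96 h pair. A second one just past the 3′ end of Hp, over an exon of the neighbouring gene Txnl4b (chr8:109571431-109575125), was at 70.7 and 56.0 at 0 h, 81.9 and 92.0 48 h after PHx, 77.4 and 89.9 after 72 h, and 77.1 and 82.5 after 96 h. In both, all 6 libraries after PHx ranked above both 0 h libraries, as was the case for 8.46% of all regions listed in all 8 libraries.

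The 2 measures differed at Hpx. Its 3′ fold enrichment was 3.46 and 4.27 at 0 h and 3.16 to 3.91 after PHx, so the groups overlapped, and the normalised log2 difference was -0.02 at 48 h, -0.10 at 72 h and -0.08 at 96 h (SE 0.24, limma adjusted p of 0.985, 0.985 and 0.996). On the scale of −log10 p the same differences were 1.09, 1.01 and 0.67 in log2. At Hp the fold enrichment was 3.13 in both 0 h libraries, 3.94 and 3.73 after 48 h, 3.59 and 3.16 after 72 h, and 3.56 and 3.94 after 96 h, the lowest of these just above 0 h. The log2 difference at the Hp 3′ region was 0.54, 0.09 and 0.31 (SE 0.24, limma adjusted p of 0.477, 0.985 and 0.949), and the last was 0.18 without 96 h replicate 2. The 72 h value was 0.03 without 72 h replicate 1 and 0.15 when replicate 2 of 72 h was left out. The intervals covered 2065 to 3527 bp of the 3695 bp Hp region in a library, and 2605 to 3300 bp of the 3705 bp Hpx region, in 1 to 5 pieces. When an interval had to cover 50% of a region to count, neither 3′ region stayed higher in all 6 libraries. The percentile and fold enrichment of both ends are drawn side by side for Hp and Hpx.

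**Figure D2:**
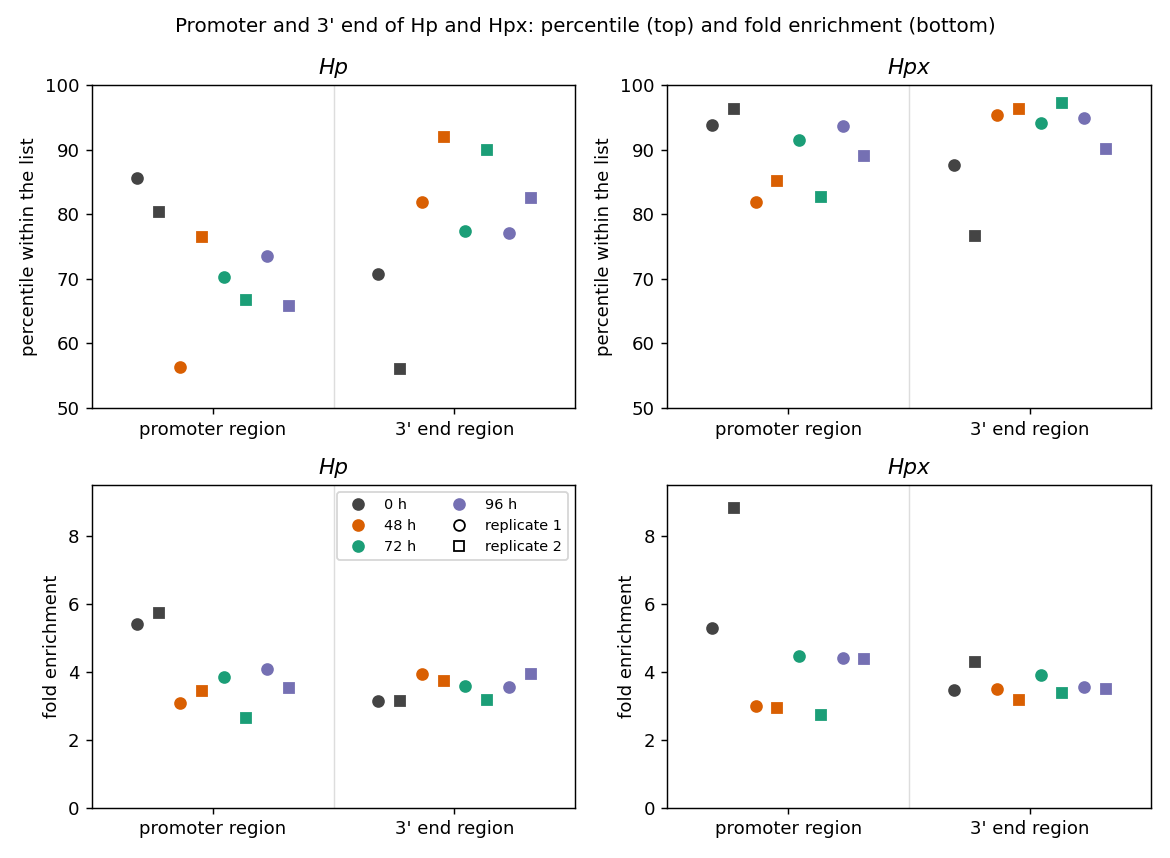
Promoter and 3′ end region of Hp (left) and Hpx (right) in the 8 libraries, as percentile within the list (top, axis from 50 to 100) and as fold enrichment (bottom, axis from 0). Points are single libraries coloured by time after PHx, with circles for replicate 1 and squares for replicate 2; the promoters lie lower after PHx on both scales, the Hpx 3′ end is higher only as a percentile.

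After these values were seen, the region within 1000 bp of the annotated 3′ end was taken for every protein-coding gene, leaving out regions near any start site. Of 1956 genes with such a region in all 8 libraries, 9.41% ranked higher in all 6 libraries after PHx and 1.58% lower. Among the members 3 had one (Hp, Hpx and Saa1), and it was higher in all 6 for Hp and Hpx. Each of these was thus higher at every single time too, where 28.3% of all such genes were higher and 13.8% lower at 48 h, 40.0% against 6.65% at 72 h, and 25.5% against 9.10% at 96 h. Of 22 further positive acute-phase genes 10 had one, and of 8 negative ones 5 had one, and by percentile none of these 15 was higher or lower in all 6 libraries. By fold enrichment 1 of the 15 was higher in all 6, Fgg, a fibrinogen chain, at 3.17 and 3.25 at 0 h and 3.33 to 4.38 after PHx, with a log2 difference of 0.56 at 48 h (limma adjusted p = 0.480). The share of the 1956 genes higher in all 6 by fold enrichment was not counted. Among the 10 positive genes, 3 were higher by percentile at 48 h (C3, Fgb and Fgg), 7 at 72 h and 2 at 96 h, with 0 lower at any time. By raw fold enrichment only Fgg was higher at 48 h, and Fgb, Itih3 and Orm3 were lower. On that measure Lbp and Fgg were higher and Fgb lower at 72 h, and Lbp and Fgg were higher at 96 h. Among the 5 negative genes, by percentile, Ahsg, Alb and Ttr were higher and Apoa1 lower at 48 h, Ttr was higher at 72 h, and Apoa1 was lower at 96 h. By raw fold enrichment Ahsg was lower at 48 h and higher at 96 h, and Rbp4 was higher at 72 h. Apoa1 was lower at 96 h on that measure too, and Alb and Ttr overlapped 0 h at each time.

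Orm1 encodes an alpha-1-acid glycoprotein, a plasma carrier, and lies beside its close copies Orm2 and Orm3. Its promoter region (chr4:63344196-63344877) was at percentiles 83.5 and 81.0 in the 0 h pair, 65.7 and 71.8 in the 48 h pair, 75.0 and 58.6 in the 72 h pair, and 76.3 and 82.7 in the 96 h pair. It was thus lower at 48 h and 72 h, and the 96 h pair overlapped 0 h. The log2 difference in fold enrichment was -0.40, -0.71 and -0.10 (SE 0.29, limma adjusted p of 0.688, 0.749 and 0.996). It became -0.23 at 48 h without 0 h replicate 2 and -0.39 at 72 h without 72 h replicate 2. Of its words 98.3% were unique around the start and 91.3% within the gene body. The strongest distal region (chr4:63338257-63339269), upstream of the gene, stood between 74.6 and 85.1 in all 8 libraries.

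Lcn2, whose product lipocalin-2 withholds bacterial siderophores, had its promoter region (chr2:32387211-32388511) at 68.2 and 71.3 at 0 h, 76.1 and 68.0 48 h after PHx, 68.8 and 83.8 after 72 h, and 83.6 and 76.7 after 96 h. Only the 96 h pair was above both 0 h values, and the log2 difference there was 0.27 (SE 0.29, limma adjusted p = 0.976). It turned to -0.08 without 0 h replicate 1 and was 0.59 when replicate 2 of 0 h was left out. With intervals that cover 50% of the region, the 96 h pair no longer stood above 0 h. The strongest distal region, just upstream (chr2:32388803-32389271), was listed in 7 libraries, at 15.2 to 62.6, and was missing from 72 h replicate 2.

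Crp and Apcs encode the pentraxins C-reactive protein and serum amyloid P component. In mice the latter is known as the main acute-phase pentraxin. The Apcs promoter (chr1:172894048-172895828) had percentiles of 89.3 and 94.2 in the 0 h pair, 91.1 and 90.3 in the 48 h pair, 84.1 and 90.2 in the 72 h pair, and 88.0 and 90.2 in the 96 h pair, and each later group overlapped 0 h. It also had the highest fold enrichment of the 10 promoters in each library, from 7.96 to 16.0. The Crp promoter (chr1:172697495-172698389) was at 71.3 and 80.0 at 0 h, 71.2 and 76.8 48 h after PHx, 85.2 and 90.3 after 72 h, and 79.4 and 93.4 after 96 h. Both 72 h libraries lay above both 0 h libraries, and 96 h replicate 1 fell just short of doing so. The Crp log2 differences were -0.19, 0.30 and 0.37 (SE 0.28, limma adjusted p of 0.875, 0.931 and 0.952), and those of Apcs were -0.17, -0.50 and -0.14 (SE 0.27, limma adjusted p of 0.880, 0.833 and 0.995). Without 0 h replicate 1 the Crp difference was 0.03 at 72 h and 0.10 at 96 h, and with 0 h replicate 2 left out instead 0.55 and 0.62. The Crp value at 96 h was 0.04 when 96 h replicate 2 was left out and 0.68 when 96 h replicate 1 was. The Apcs differences were -0.55, -0.88 and -0.51 without 0 h replicate 1, and 0.20, -0.12 and 0.23 when replicate 2 of 0 h was left out, so that those at 48 and 96 h turned positive.

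The strongest Apcs distal region (chr1:172903115-172904033), upstream of the gene, was at 90.2 and 85.2 in the 0 h pair, 85.5 and 85.4 in the 48 h pair, 94.3 and 88.8 in the 72 h pair, and 95.9 and 92.95 in the 96 h pair, so the 96 h pair lay above 0 h. At Crp the strongest (chr1:172706302-172707043) was at 72.4 in both 0 h libraries, 80.4 and 91.2 after 48 h, 71.6 and 86.0 after 72 h, and 85.9 and 78.3 after 96 h. The GENCODE model of Crp spans 134977 bp against 1911 bp in RefSeq, and 45 of the 117 regions came from this locus. Within the flanks of the RefSeq gene there were 9, of which 3 were in all 8 libraries.

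The Saa cluster had 32 regions, 6 of them in all 8 libraries. Saa4, the constitutively expressed member, had its promoter (chr7:46732480-46732958) at 68.6 and 67.8 at 0 h, 72.3 and 82.2 48 h after PHx, 73.0 and 62.9 after 72 h, and 67.9 and 59.2 after 96 h. The 48 h pair was above 0 h, by 0.36 in log2 fold enrichment (SE 0.32, limma adjusted p = 0.757), or 0.20 without 0 h replicate 1. The Saa1 promoter (chr7:46742906-46743253) was listed at 51.5 in 72 h replicate 1 and 50.9 in 96 h replicate 1 and in no other library. At Saa2 an interval upstream of the start (chr7:46751567-46751735) was listed only in 0 h replicate 2, at 23.4, and one inside the gene only in 72 h replicate 2 and 96 h replicate 1, at 12.8 and 3.63. None of these formed a group that stood apart from 0 h.

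Saa3, which is known for expression outside hepatocytes too, had an interval centred 1006 bp inside the gene (chr7:46714571-46714817). It was at 58.2 in 0 h replicate 1 and missing in 0 h replicate 2, 68.8 and 75.0 after 48 h, 58.1 and 71.6 after 72 h, and 28.9 and 47.3 after 96 h. Only the 48 h pair exceeded both 0 h libraries, and with a window of 500 bp around the start this interval was no longer counted. The strongest distal region of the cluster (chr7:46719405-46720092) covers the further upstream start that RefSeq gives Saa3, and stood at 67.5 to 85.4 in the 8 libraries, with no group wholly above 0 h and the 48 h pair below it.

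Between Saa1 and Saa2, a region without repeated words (chr7:46745828-46746812) was at 69.7 and 88.2 in the 0 h pair, 34.8 and 57.1 in the 48 h pair, 70.2 and 74.8 in the 72 h pair, and 66.8 and 69.8 in the 96 h pair. The 48 h pair was lowest, and its log2 difference of -1.02 (SE 0.32, limma adjusted p = 0.360) was the largest of any member region at that time. Without 0 h replicate 2 it was -0.54, and then smaller than that of the region described next (-0.87) and of the Hpx promoter (-0.59). Between Saa3 and Saa4, a region at chr7:46723911-46724655 was at 71.8 and 46.6 at 0 h, 0.0 and 33.7 48 h after PHx, 5.8 and 73.3 after 72 h, and 61.6 and 49.4 after 96 h. The interval of 48 h replicate 1 was listed at the very bottom and the 72 h libraries stood far apart, and the log2 difference was -0.75 at 48 h and -0.71 at 72 h (SE 0.27, limma adjusted p of 0.410 and 0.735), the latter -0.46 without 72 h replicate 1. Both were named after their values were seen, because their unadjusted p was under 0.05.

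**Figure D3:**
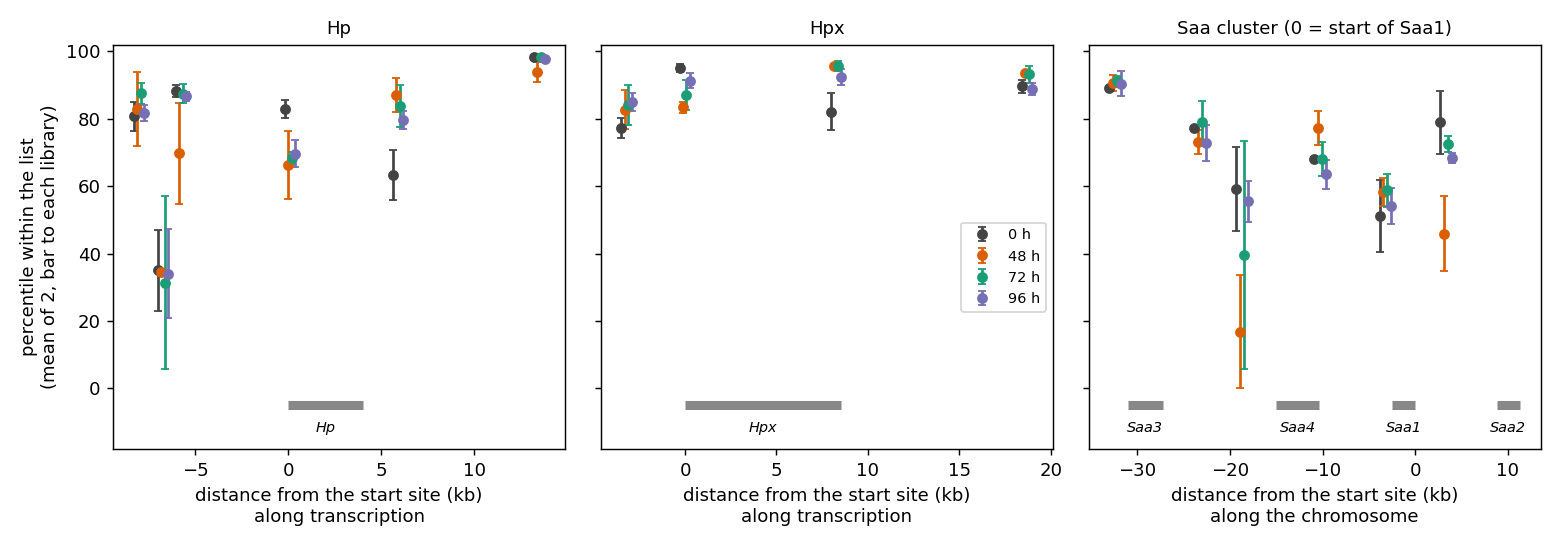
Percentile within the list (y axis, mean of 2 libraries with bars to each) of the member regions found in all 8 libraries, against the distance of their centre from the start site in kb, for Hp, Hpx and the Saa cluster, coloured by time after PHx with grey bars for the genes. The promoters of Hp and Hpx lie lower after PHx and the 3′ regions higher, and the region between Saa1 and Saa2 is lowest at 48 h.

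Counted together, 2 of the 10 member promoters ranked higher and 3 lower at 48 h than at 0 h, against 17.8% and 19.7% of protein-coding promoters. At 72 h 1 was higher and 3 were lower, against 24.9% and 14.5%, and at 96 h 1 was higher and 2 were lower, against 19.9% and 10.8%. The lower ones were Hp, Hpx and Orm1 at 48 and 72 h, and Hp and Hpx at 96 h. With 1 library left out, a promoter had fewer values to pass, so such counts could rise by the rule alone. The share of all promoters under that looser rule was not computed. Leaving out 0 h replicate 1 raised the number lower from 3 to 6 at 48 h, from 3 to 5 at 72 h, from 2 to 4 at 96 h, and from 2 to 4 in all 6 libraries. At 96 h the number lower became 5 with 0 h replicate 2 omitted, 4 with 96 h replicate 2 omitted and 3 with 96 h replicate 1 omitted. The number higher at 72 h was 3 without either of the 72 h libraries and 2 without either 0 h library, and the number higher at 96 h was 2 without any 1 of the 0 h or 96 h libraries.

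Of the 31 member regions in all 8 libraries, 6 ranked higher and 8 lower at 48 h, against 24.2% and 17.6% of all such regions. At 72 h 6 were higher and 3 lower, against 35.3% and 9.69%, and at 96 h again 6 and 3, against 25.5% and 10.8%. In all 6 libraries after PHx 2 of the 31 were higher, the 3′ regions of Hp and Hpx, against 8.46%. The share higher was thus no larger than that of all regions. The 2 that were lower were the promoters of Hp and Hpx, against 2.48%. By limma 0 of the 31 passed the adjusted threshold at any time. At an unadjusted p under 0.05 there was 1 higher and 3 lower at 48 h (background 4.90% and 4.99%), 0 higher and 4 lower at 72 h (3.62% and 2.66%), and 0 in either direction at 96 h (3.06% and 2.63%). The median log2 difference over the 31 was -0.17, -0.15 and -0.07, and that of all regions 0.00, -0.02 and 0.00. Between the later times limma called 0 of the 57473 regions, with an unadjusted p under 0.05 for 7.30% of them between 48 and 72 h, 7.58% between 48 and 96 h and 3.95% between 72 and 96 h.

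**Figure D4:**
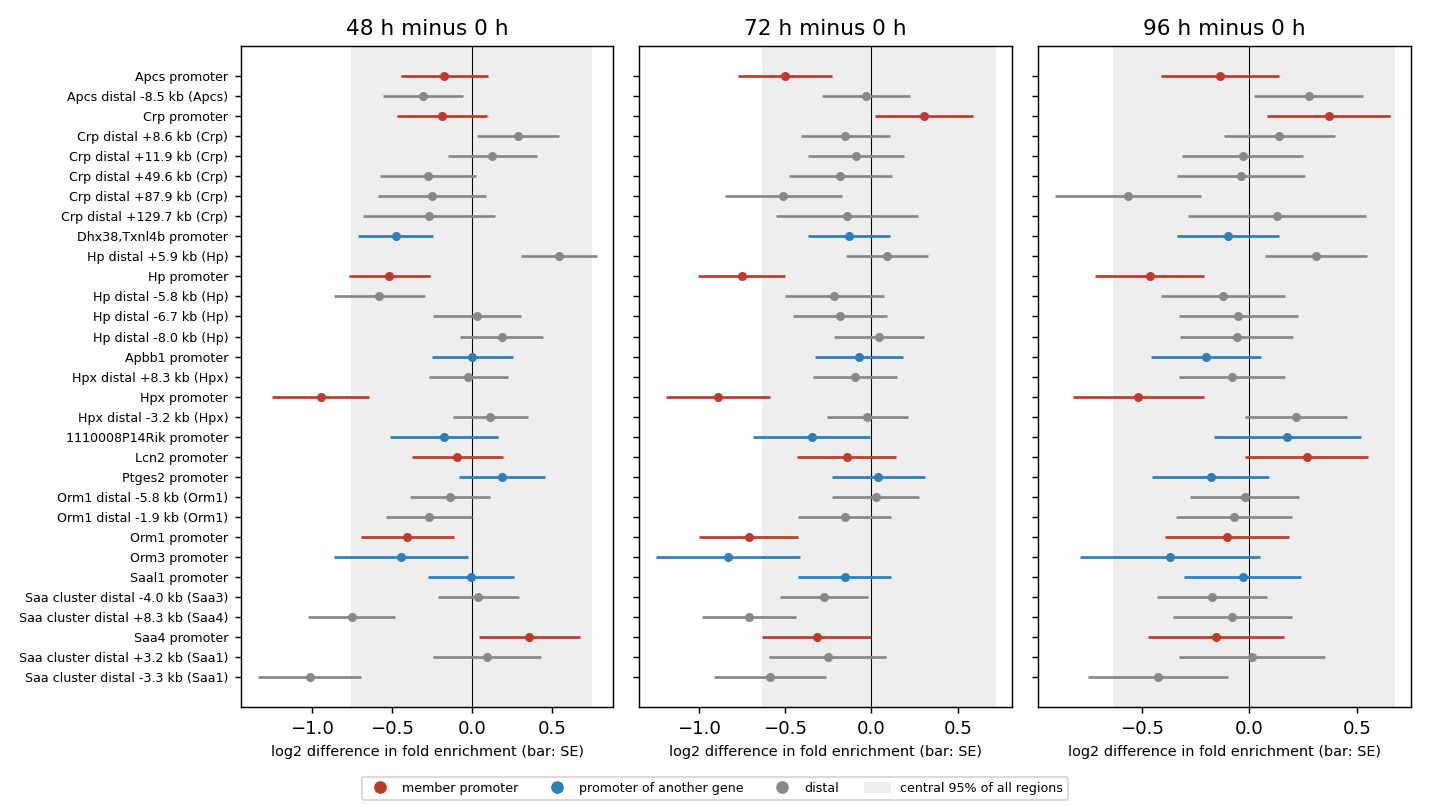
Log2 difference in quantile-normalised fold enrichment from 0 h (x axis, bars are the SE) for the 31 member regions in all 8 libraries at 48, 72 and 96 h, coloured by class, with grey bands for the central 95% of all 57473 regions. The Hpx promoter lies left of the band at 48 and 72 h, as does the region between Saa1 and Saa2 at 48 h and, at 72 h, the promoters of Hp, Orm1 and Orm3 and the region between Saa3 and Saa4, and all points lie within it at 96 h.

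The upstream region of Hp (chr8:109584296-109585553) was the strongest distal one of that locus, at 90.0 and 86.4 in the 0 h pair, 54.7 and 84.8 in the 48 h pair, 90.3 and 84.6 in the 72 h pair, and 85.4 and 88.0 in the 96 h pair. The 48 h pair lay below 0 h, mostly through replicate 1. Of the 7 member promoters in all 8 libraries, 3 had their lowest percentile in 48 h replicate 1. The share of all promoters with their lowest percentile there was not computed.

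In a wider list of positive acute-phase genes, 19 of 22 promoters were in all 8 libraries, and 0 passed the limma threshold. At an unadjusted p under 0.05 there was 1 lower at 48 h (background 4.99%), 1 lower at 72 h (2.66%) and 0 at 96 h (3.06% higher and 2.63% lower). By order of percentiles, 1 of the 22 was higher and 8 were lower at 48 h, where 17.8% and 19.7% of protein-coding promoters were. At 72 h 4 were higher and 2 lower (24.9% and 14.5%), and 3 were higher and 5 lower at 96 h (19.9% and 10.8%). The largest limma differences at 48 h were those of Cp, the copper carrier ceruloplasmin, at -0.60 (SE 0.24, limma adjusted p = 0.444), of Itih4, an inter-alpha-trypsin inhibitor heavy chain, at -0.52 (SE 0.27, limma adjusted p = 0.562), and of Mt2, a metallothionein, at -0.51 (SE 0.43, limma adjusted p = 0.745). The Mt2 fold enrichment was 2.38 and 6.30 at 0 h and 2.16 and 2.87 at 48 h. Its 0 h pair thus stood far apart, and its percentiles at 48 h overlapped 0 h. The median was -0.18 at 48 h, against -0.19 for the 7 member promoters in all 8 libraries.

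The promoters whose normalised log2 fold enrichment followed that of the Hpx promoter most closely over the 8 libraries were a shared promoter of Nfkbib and Sirt2 (Pearson r = 0.972), a shared promoter of D6Wsu163e and Rad51ap1 (r = 0.957) and that of Edem2 (r = 0.949). They were the closest of 13233 compared, and 8 points from shared libraries carry no test.

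The 7 loci together held 59.0 ± 11.3 intervals in a library before PHx, 62.5 ± 2.12 after 48 h, 75.0 ± 12.7 after 72 h and 70.5 ± 7.78 after 96 h (means with SD, n = 2). As a share of the list this was 50.7, 48.8, 50.7 and 51.7 per 100000 intervals, with SDs of 3.09, 4.10, 5.16 and 1.098. The covered length was 29066, 28452, 35974 and 30536 bp. The share of accessible intervals at these loci thus differed between times by less than the larger of the SDs.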

How the data were processed

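Bulk ATAC-Seq peak lists of 8 hepatocyte libraries were analysed. Per the study's methods, the authors ran the ENCODE pipeline, with trimming, Bowtie2 mapping to mm10, removal of PCR duplicates and MACS2 peak calling in each library. The deposited lists give a fold enrichment (a ratio to local background), a −log10 p, a −log10 q, a display score and a summit offset for each peak. The score was not used. Read counts, on which the authors tested time courses, are not in the lists, so their test was not repeated. At its own thresholds that test did report regions whose accessibility differed from 0 h after PHx. The lack of limma calls here, on another measure, does not speak to those regions.

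Lines sharing an interval were collapsed to the one with the highest −log10 p, on chromosomes 1 to 19, X and Y. Intervals of all 8 lists overlapping by at least 1 bp were merged into regions, and each library's strongest interval stood for the region. A library with no interval took percentile 0. Limma 3.58.1 (R 4.3.3) was fitted to all regions in all 8 lists, with the 4 times as groups and no block. The script was tested on simulated data. A region was higher, or lower, at a time when both libraries lay above, or below, both 0 h libraries. This order was given no p-value. Genes came from GENCODE M21 basic and sequence from GRCm38.p6, the same assembly as mm10.

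The members, lists and tests were chosen with earlier results of these data known. Named were all members, each promoter and strongest distal region, regions on 1 side of 0 h in all 6 later libraries and, of the other acute-phase genes, the 3 with the largest difference at 48 h. For likeness, the 3 promoters closest to Hpx were taken. Alternatives were the −log10 p scale, median centring, no presence filter, a q under 0.05, the 50000 strongest intervals, a replicate block, flanks of 25000 bp, promoters of 500 bp, 50% coverage, order by fold enrichment, and leaving out each library.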

Additional observations from a re-analysis of the deposited data

How the results depend on the processing

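With 2 libraries a time and no depth, none of the 57473 regions was called, whatever the size of its difference. A region without a call is therefore not shown to be unchanged. No member region passed the adjusted threshold under any alternative run, the replicate block included (0 at each time). Over regions in at least 1 list the smallest limma adjusted p was 0.127, 0.154 and 0.168. Correlations of same-numbered deviations ran from -0.055 to 0.125, so no strong effect shared by replicate number was seen. These values cannot show whether libraries were prepared in pairs.

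The order counts moved as follows, and no share of all promoters or regions was computed under the same settings. Ranking within the 50000 strongest intervals gave 4 promoters lower at 96 h (2 as reported). Promoters of 500 bp gave 1 higher at 48 h (2), and 50% coverage gave 0 promoters higher at 96 h (1) and 0 distal regions higher in all 6 libraries (2). Members with a promoter interval in all 8 lists fell from 7 to 4 in the 50000 strongest. Hp and Hpx were lower in all 6 under each of these and with q under 0.05. The intervals per 100000 became 54.0 at 0 h and 55.0 at 48 h in the 50000 strongest.

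Leaving out 1 library loosens the rule, since fewer values have to be passed, and no share of all promoters was computed for it. Leaving out 1 library, promoters higher ranged 2 to 3 at 48 h, 1 to 3 at 72 h, 1 to 2 at 96 h and 0 to 1 in all 6. Promoters lower ranged 3 to 6, 3 to 5, 2 to 5 and 2 to 4, and distal regions higher in all 6 from 2 to 5. Distal regions were 5 without 0 h replicate 1.

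Of 459 recomputed log2 differences, 23 changed sign, 10 of them without 0 h replicate 2, and none crossed the threshold. On the −log10 p scale the Hpx 3′ region became 1.09, 1.01 and 0.67 and Lcn2 at 72 h 0.0717. Under median centring the Hpx 3′ region was 0.18 at 48 h, and with no presence filter the Hp 3′ region was -0.0625 at 72 h. By fold enrichment the Hpx 3′ order was lost (0 against 1) and that of Hp held. Leave-one-out ranges that crossed 0 were -0.21 to 0.15, -0.28 to 0.0781 and -0.27 to 0.10 for the Hpx 3′ region, -0.44 to 0.24, -0.49 to 0.19 and -0.0814 to 0.59 for Lcn2, -0.46 to 0.065 for Crp at 48 h, -0.55 to 0.20 at 48 h and -0.51 to 0.23 at 96 h for Apcs, -0.35 to 0.14 for Orm1 at 96 h, -0.83 to 0.21 for Saa4 at 72 h, -0.91 to 0.0557 for the region between Saa1 and Saa2 at 96 h, and -0.19 to 0.0247 for that between Saa3 and Saa4 at 96 h. The cause of these changes was not tested.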

Other observations

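Among negative acute-phase genes, whose plasma products decline in inflammation, 3 of 8 promoters were in all 8 lists, and among the further positive ones 19 of 22, where 80.6% of all protein-coding promoters were. All 8 negative ones were listed in both 0 h libraries. From 48 h replicate 1, 5 of the 8 negative and 2 of the 22 positive ones were missing, as were 13.6% of all promoters. The difference between the lists was not tested. The Alb promoter, of the main plasma protein albumin, was listed at percentiles 72.3 and 50.03 at 0 h and 58.7 in 96 h replicate 1, and in no other library. Ranked lower in all 6 libraries after PHx were Trf, the iron carrier transferrin, Ahsg, fetuin-A, and of the positive genes Fgb, a fibrinogen chain, against 3.25% of all promoters. Each of these was unlisted in 1 library after PHx, which then counted as 0: 48 h replicate 1 for Trf and Ahsg, and 72 h replicate 2 for Fgb. At 0 h Trf was at 83.4 and 82.0 and Ahsg at 73.8 and 75.2, and after PHx they reached at most 77.0 and 67.8. Of the 7 hepatocyte markers, the promoters of Cyp2e1, a cytochrome P450, and Asgr1, the asialoglycoprotein receptor, were also lower in all 6. Those of Alb, Ttr, Apoa1, Hnf4a and Serpina1a were neither lower nor higher in all 6. These orders are by percentile, and by fold enrichment only Trf lay below both 0 h libraries in every later library that listed it, while Ahsg, Fgb, Cyp2e1 and Asgr1 overlapped. These promoters were chosen after their values were seen. Alb, Ttr, Trf, Ahsg and Fgb did not enter the limma fit, which took regions listed in all 8 libraries. For the hepatocyte markers that did, the log2 differences at 48 h went both ways. They were -0.39 for Cyp2e1, -0.13 for Hnf4a, -0.08 for Asgr1, 0.20 for Apoa1 and 0.36 for Serpina1a (limma adjusted p of 0.666 to 0.949).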
